A study of Homo sapiens with 9 samples.

Results

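The genes described here are 36 genes of glycolysis and of the cellular response to low oxygen, taken from a list of gene symbols. For each symbol the probe set with the highest mean signal over the 9 arrays was used. Of the 36 genes, 34 were matched to a probe set of their own, and CA9 and SLC16A3 were not analysed here. Of these 34, 33 passed the filter on low signals, among the 12594 genes of the whole array that were tested. EGLN3, a prolyl hydroxylase that senses oxygen, did not pass: it exceeded the pooled median signal of 69.3 on 1 of 9 arrays, with signals between 11.4 and 70.7.

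The data are 9 arrays of human breast cell lines, 3 per line. MCF-10AT1Kcl2, called MII, is labelled as carcinoma in situ. Carcinoma is the label of both MCF-10A1h, called MIII, and MCF-10A1a, called MIV, the latter with the added word metastatic. Each disease state thus rests on 1 line, and all descend from the immortalised epithelial line MCF-10A through cells carrying an activated HRAS. All were grown in the same medium, DMEM/F12 with horse serum, antibiotics, insulin, cholera toxin, epidermal growth factor and hydroxycortisone, with no further treatment, and the labels give no oxygen level. The arrays are called biological replicates without mention of separate cultures, so the p-values below rest on array-to-array spread that may be technical. In RNA from whole cultures, fewer cells of a kind and less RNA per cell cannot be told apart.

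Glycolysis splits glucose into pyruvate, which is either reduced to lactate or oxidised in mitochondria. The hypoxia-inducible factors pair an oxygen-regulated alpha subunit, such as HIF1A or EPAS1, with the stable partner ARNT. When oxygen is plentiful, EGLN enzymes hydroxylate the alpha subunit and VHL marks it for destruction, so HIF1A is controlled largely at the protein level, which arrays do not measure. When oxygen is scarce, the complex binds short DNA elements and induces glucose carriers, glycolytic enzymes, VEGFA, carbonic anhydrases and mitophagy receptors. Many tumour cells also run glycolysis at high rates in the presence of oxygen.

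The 3′ to 5′ signal ratio of the GAPDH control probe sets, a measure of RNA integrity, ran from 1.06 to 1.17 over the MII arrays, from 0.974 to 0.988 over MIII and from 1.04 to 1.10 over MIV. MIII thus lay apart from the other lines in this ratio, and its part in the results was not tested. For ACTB it was 1.20 to 1.25, 1.17 to 1.24 and 1.12 to 1.15. MIV replicate 3 stood apart in its bioB hybridisation control, at 3685 against 1235 to 1879.6 on the other arrays. Without that array the numbers of called genes given below were the same, 6, 4 and 5. Of 8 epithelial markers 7 were measured, and their summed signal lay between 109500 and 119600 in MII and MIV together and between 65780 and 66870 in MIII.

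Most enzymes of lower glycolysis gave signals near the top of the array's range and differed little between the lines. Among the 33 genes, 8 (24.2%, against 19.2% of all genes tested) differed by at least 2-fold between at least one pair of lines. The scale, used for all changes below, was log2(signal + 18.3). VEGFA, ALDOC, BNIP3 and PFKFB3 had their highest signals in MIV, whereas CA12, ADM, SLC2A3 and ENO2 had theirs in MIII. SLC2A3 and ENO2, which count among the 8, passed the filter on low signals only through their MIII arrays. A difference with MIII highest was thus fixed for them, and the share of 24.2% does not set the group apart. A gene was called if its limma adjusted p, taken over all 12594 genes, was under 0.05 and its change at least 2-fold.

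**Figure D1:**
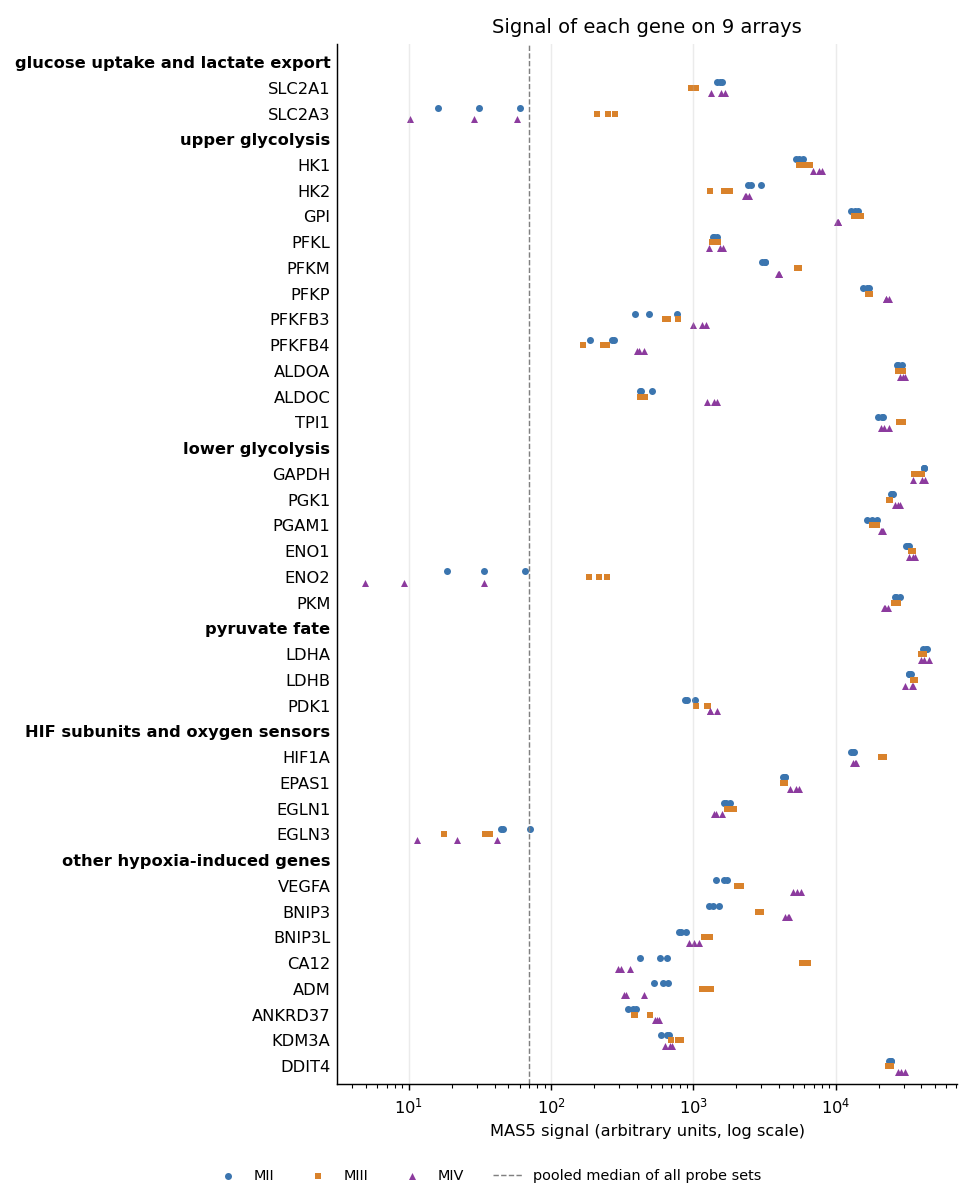
MAS5 signal on a log axis of the 34 measured genes (rows, grouped by role) on each of 9 arrays, with MII as circles, MIII as squares and MIV as triangles. The dashed line is the pooled median of 69.3. Most enzymes of lower glycolysis cluster at the right, while the 3 MIII squares of SLC2A3, ENO2, CA12 and ADM lie to the right of the other lines.

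Between MIV and MIII, 6 of the 33 genes were called (18.2%), against 12.7% of all genes tested. Of these, ALDOC and VEGFA were higher in MIV (2 of 33, against 4.95% of all genes) and CA12, ADM, SLC2A3 and ENO2 lower (4 of 33, against 7.79%). Between MIV and MII 4 were called (12.1%, against 8.14% of all genes), all higher in MIV: VEGFA, BNIP3, ALDOC and PFKFB3. Of all genes 2.96% were called higher and 5.18% lower there. Between MIII and MII 5 were called (15.2%, against 11.7% of all genes), all higher in MIII: CA12, SLC2A3, ENO2, BNIP3 and ADM. Of all genes 6.17% were called higher and 5.55% lower there. SLC2A3 and ENO2 passed the filter on low signals only through the 3 MIII arrays, so their calls had to show MIII higher and are a description. With the stricter filter at the pooled 75th percentile, which they missed, 3 of 30 genes were called between MIII and MII and 4 of 30 between MIV and MIII. With the filter at the pooled median, leaving out MIII replicate 1, 2 or 3 gave 3, 3 and 2 called genes between MIII and MII. SLC2A3 and ENO2 then missed the filter and, without replicate 3, ADM fell short of 2-fold. For the counts with the stricter filter or without an array, no share of all genes is given, so they are a description. The shares of the 33 genes given above are near those of all genes and do not set the group apart.

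At an adjusted p under 0.05 without a fold minimum, 25 of 33 genes passed between MIV and MIII (75.8%, against 51.9% of all genes), 14 higher and 11 lower in MIV (25.3% and 26.6% of all genes). Between MIV and MII 20 passed (60.6%, against 42.2%), 15 higher and 5 lower (20.0% and 22.2% of all genes). Between MIII and MII 14 passed (42.4%, against 47.2%), 12 higher and 2 lower (22.9% and 24.3% of all genes). The medians of the 33 log2 changes were 0.06, 0.09 and 0.10 in the same order, and those of all genes -0.01, -0.03 and -0.02. The comparisons share arrays, MIV in the first pair and MII in the last pair. SLC2A3 and ENO2, tested only through their MIII arrays, are among the 11 lower in MIV against MIII. They are also among the 12 higher in MIII against MII.

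The order of the 9 arrays describes the same values and adds no separate support. In 13 of 33 genes (39.4%) all 3 MIV arrays lay above the other 6, as they did in 14.2% of all genes tested. In 9 genes (27.3%) all 3 MIII arrays lay above the other 6, against 18.0% of all genes. SLC2A3 and ENO2 are among these 9, and their order was fixed by the filter on low signals. In 0 of the 33 genes did the 3 MII arrays lie above the others, an order seen in 13.0% of all genes. They lay below the others in 5 genes (15.2%, against 10.4%). The MIII arrays lay below the others in 3 genes (9.09%, against 17.2%) and the MIV arrays in 5 (15.2%, against 14.8%).

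**Figure D2:**
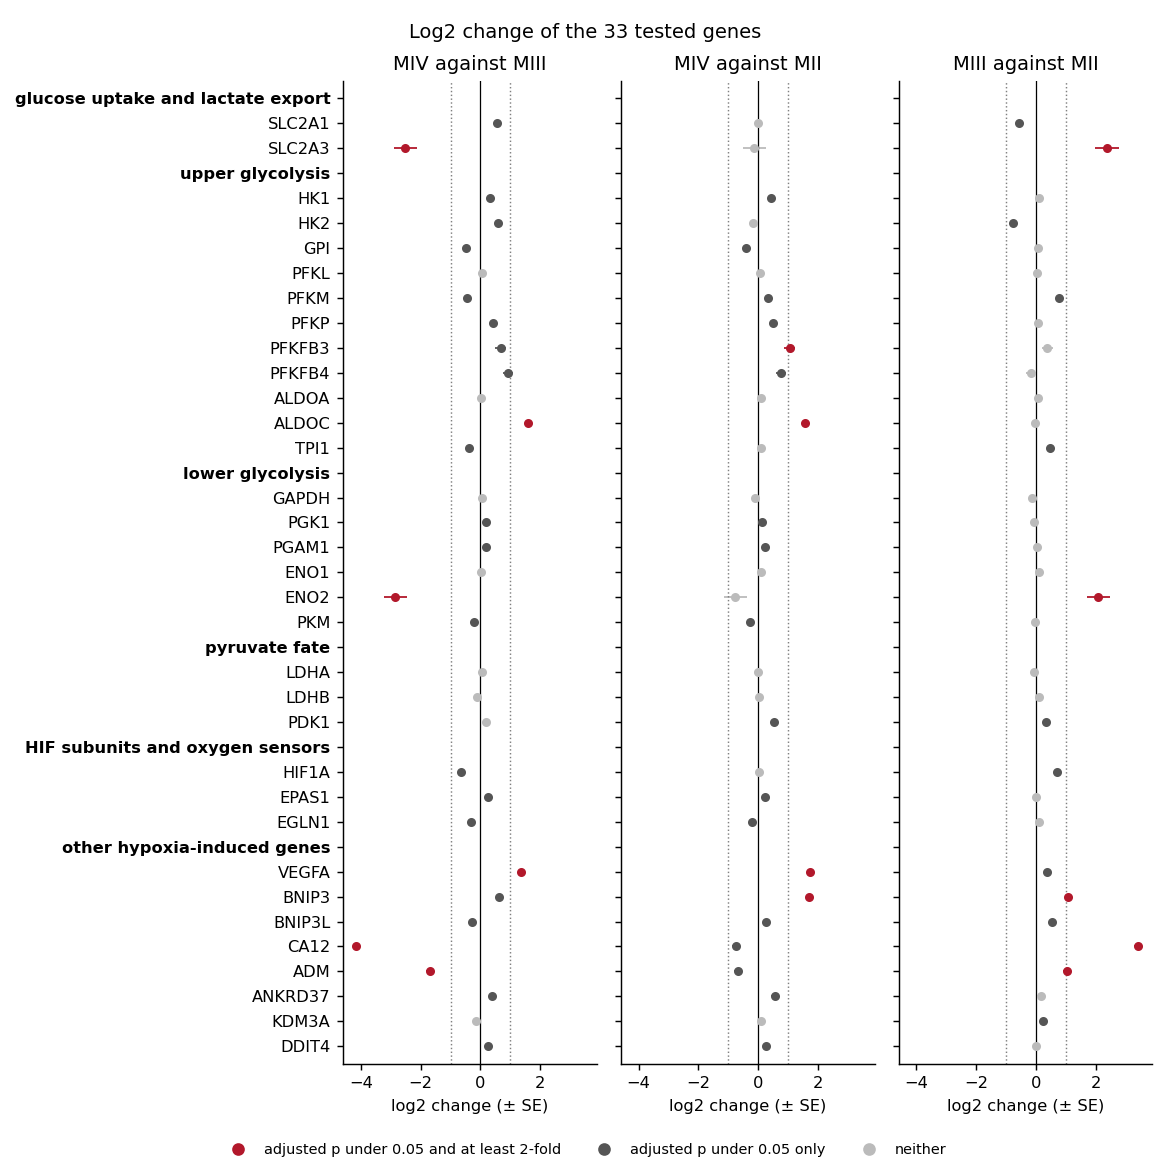
Log2 change with its limma standard error for the 33 tested genes in each comparison, with dotted lines at a 2-fold change. Called genes are red, genes with an adjusted p under 0.05 alone dark grey and the others light grey. CA12 lies farthest out, at -4.15 in MIV against MIII and 3.42 in MIII against MII, and most enzymes lie close to 0.

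Glucose enters these cells through carriers of the SLC2A family. SLC2A1, the widespread basal glucose carrier, had signals of 1596, 1526 and 1471 in MII, 1048, 1045 and 965 in MIII and 1668, 1325 and 1570.5 in MIV. The MIII arrays were all below the other 6, and MII and MIV overlapped. SLC2A1 had a log2 change of -0.58 ± 0.09 (SE) in MIII against MII (limma adjusted p = 6.54e-05) and 0.56 ± 0.09 in MIV against MIII (7.12e-05), short of 2-fold. Its dimmer suffix-free probe set gave -1.14 ± 0.24 in MIII against MII, past 2-fold. That probe set was also lower in MIV than in MII, by -0.72 ± 0.24 (limma adjusted p = 0.0355 over all probe sets). It did not pass in MIV against MIII (0.42 ± 0.24, adjusted p = 0.18).

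SLC2A3, a high-affinity glucose carrier typical of neurons and induced by hypoxia in other cells, showed the opposite order. Its signals were 252, 282 and 210.4 in MIII, but 31.1, 16 and 60.0 in MII and 28.7, 57.3 and 10.1 in MIV. All 6 arrays of MII and MIV thus lay under the pooled median, and MIII did not overlap with them. SLC2A3 rose by 2.38 ± 0.39 in MIII against MII (limma adjusted p = 0.000168) and was lower by -2.51 ± 0.39 in MIV against MIII (8.90e-05). With an offset of 1 these changes were 2.94 and -3.21, and with the pooled median as offset 1.61 and -1.67. Both other SLC2A3 probe sets gave the same direction, with 1.86 and 1.71 in MIII against MII, while another 2 probe sets are annotated to SLC2A3 together with a further gene and were not used. SLC2A3 was tested through its 3 MIII arrays, and without any one of them it missed the filter.

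The first committed steps of glycolysis are run by hexokinases and phosphofructokinases. HK1, the constitutive hexokinase, had a mean signal of 5570 ± 342 in MII (SD, n = 3 arrays, as for all means below), 6054 ± 509 in MIII and 7545 ± 511 in MIV. It was higher in MIV by 0.44 ± 0.07 against MII and 0.32 ± 0.07 against MIII (limma adjusted p of 0.000207 and 0.00171). HK2, the hexokinase that hypoxia and insulin induce, was lowest in MIII, at 1575 ± 253 against 2655 ± 311 in MII and 2362 ± 71.8 in MIV. Its log2 change in MIII against MII was -0.75 ± 0.11 (limma adjusted p = 4.49e-05), although a dim probe set of HK2 (93.0 to 152 on average) gave 0.64 ± 0.22 there and another gave -0.22 (adjusted p = 0.551). HK2 and SLC2A1 were thus both lowest in the line in which SLC2A3 was highest.

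The phosphofructokinase isoforms differed from one another. PFKM, named for muscle, was higher in MIII (5414 ± 88.0) than in MII (3143 ± 107) and MIV (3965 ± 52.7), with a log2 change of 0.78 ± 0.05 in MIII against MII (limma adjusted p = 1.10e-08). PFKP, named for platelets, was highest in MIV (23044 ± 616, against 16431 ± 924 and 17168 ± 233), with 0.49 ± 0.05 against MII and 0.42 ± 0.05 against MIII, while another PFKP probe set gave -0.36 and -0.16, neither of which passed. PFKL, named for liver, gave changes between 0.03 and 0.06, none of which passed, with adjusted p from 0.592 to 0.831.

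PFKFB3 and PFKFB4 make and break the sugar bisphosphate that activates phosphofructokinase. PFKFB3 signals were 488, 770.3 and 389 in MII, 782.5, 668 and 635 in MIII and 1143, 1232 and 986.5 in MIV. The MIV arrays lay above all others, while MII and MIII overlapped. PFKFB3 rose by 1.06 ± 0.18 in MIV against MII (limma adjusted p = 0.000401), a 2.08-fold change close to the minimum. Without MII replicate 3 the change was 0.845 and without MIV replicate 2 it was 0.985, both short of a call. PFKFB4 lay just outside the minimum, with 422 ± 24.6 in MIV against 215 ± 41.6 in MIII (0.93 ± 0.17, adjusted p = 0.000399) and 244 ± 48.0 in MII (0.77 ± 0.17, adjusted p = 0.00251).

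Aldolase cleaves the hexose bisphosphate into trioses. ALDOC, the aldolase isoform of brain and a hypoxia-induced gene, had signals of 511, 418 and 431 in MII, 455, 420 and 457 in MIII and 1389, 1248 and 1458.5 in MIV. The MIV arrays lay above the other 6, and MII and MIII could not be separated. ALDOC rose by 1.56 ± 0.10 in MIV against MII (limma adjusted p = 2.86e-08) and by 1.58 ± 0.10 against MIII (1.38e-08), a 2.94-fold and 2.99-fold change. ALDOA, the ubiquitous aldolase, had 27933 ± 1118, 29093 ± 1382 and 29595 ± 1348, and none of its changes, at most 0.08, passed the test.

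Other enzymes of upper glycolysis shifted by less than 2-fold. GPI, the phosphoglucose isomerase, was lower in MIV, at 10316 ± 32.4 against 13652 ± 788 in MII and 14405 ± 846 in MIII (-0.40 ± 0.05 and -0.48 ± 0.05, limma adjusted p of 4.00e-05 and 4.52e-06). TPI1, which interconverts the trioses, was higher in MIII, at 28796 ± 945 against 20799 ± 907 in MII and 22072 ± 1411 in MIV (0.47 ± 0.05 in MIII against MII, adjusted p = 5.23e-06). In all, 9 of 11 genes of upper glycolysis had an adjusted p under 0.05 between MIV and MIII, 7 between MIV and MII and 3 between MIII and MII. These are 81.8%, 63.6% and 27.3% of the 11, against 51.9%, 42.2% and 47.2% of all genes, the last lying under its background.

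The other enzymes of lower glycolysis were nearly level across the lines. GAPDH, the triose phosphate dehydrogenase, gave 41826 ± 115 in MII, 37778 ± 2649 in MIII and 39426 ± 3777 in MIV, and its log2 changes (-0.15 to 0.06) did not pass. ENO1, the main enolase, gave 32223 ± 863, 34497 ± 809 and 34613 ± 1575, with changes of at most 0.10 and adjusted p from 0.0790 to 0.949. PGK1 and PGAM1, the phosphoglycerate kinase and mutase, were higher in MIV than in MIII by 0.18 ± 0.04 and 0.18 ± 0.06 (limma adjusted p of 0.00153 and 0.0134). The first was not seen on every PGK1 probe set: of 6, a dim one averaging 113 to 236 by line gave -0.68 in that comparison. PKM, the pyruvate kinase that makes the final ATP of the chain, was lower in MIV (22595 ± 706) than in MII (27114 ± 1150) and MIII (26355 ± 1028), by -0.26 ± 0.05 and -0.22 ± 0.05.

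ENO2, the enolase of neurons and another hypoxia-induced gene, was the exception in lower glycolysis. Its signals were 245, 217 and 183 in MIII, 33.9, 18.6 and 65.7 in MII and 33.5, 4.9 and 9.3 in MIV. As with SLC2A3, the MIII arrays alone exceeded the pooled median. ENO2 rose by 2.09 ± 0.39 in MIII against MII (limma adjusted p = 0.000491) and was lower by -2.85 ± 0.39 in MIV against MIII (2.75e-05), values that were 2.59 and -4.07 with an offset of 1 and 1.40 and -1.75 with the pooled median as offset. MIV and MII overlapped (-0.76 ± 0.39, adjusted p = 0.135). It also missed the filter without any one of the MIII arrays.

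Lactate dehydrogenase turns pyruvate into lactate. LDHA, its hypoxia-induced muscle-type subunit, had 42679 ± 1443 in MII, 40371 ± 1107 in MIII and 42306 ± 2901 in MIV. Its log2 changes of -0.08 to 0.07 did not pass (adjusted p from 0.218 to 0.850). LDHB, the heart-type subunit, had 33002 ± 632, 35674 ± 631 and 33329 ± 2168, with changes of -0.10 to 0.11 that did not pass either. A second LDHB probe set was higher in MIII than in MII by 0.38 (adjusted p = 2.74e-05 over all probe sets). PDK1, which keeps pyruvate out of mitochondria by inhibiting pyruvate dehydrogenase, had 934 ± 79.6 in MII, 1189 ± 121 in MIII and 1360.5 ± 92.0 in MIV, and was higher than in MII by 0.34 ± 0.09 in MIII and 0.54 ± 0.09 in MIV (limma adjusted p of 0.00719 and 0.000336). Both other PDK1 probe sets passed in neither comparison.

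Brightness and small changes went together. Of the 33 genes, 12 had a mean signal above the 99th percentile of all probe sets, among them ALDOA, TPI1, GAPDH, PGK1, PGAM1, ENO1, PKM, LDHA and LDHB. The median log2 difference between their highest and lowest line was 0.21, against 0.18 for the 283 tested genes that were as bright, while it was 0.75 for the other 21 genes and 0.47 for all genes tested. LDHA reached 45464 on 1 array, and the largest value of any probe set was 66641. The part that brightness plays in the small changes of these genes was not tested.

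The oxygen-sensing genes moved by less than 2-fold. HIF1A, the alpha subunit of the main hypoxia-inducible factor, had signals of 12873, 13453 and 13293 in MII, 20734, 21912 and 21369 in MIII and 13801, 13161 and 13762 in MIV. The MIII arrays were all above the others, and MII and MIV overlapped. HIF1A was higher in MIII than in MII by 0.69 ± 0.04 (limma adjusted p = 1.07e-08, 1.61-fold) and lower in MIV than in MIII by -0.65 ± 0.04 (1.85e-08), and MIV and MII differed by 0.04 ± 0.04 (0.495). EPAS1, the alpha subunit of the second factor, was highest in MIV, at 5188 ± 366 against 4367 ± 109 in MII and 4343 ± 42.9 in MIII (0.24 ± 0.06 and 0.25 ± 0.06, adjusted p of 0.00280 and 0.00161). EGLN1, the main prolyl hydroxylase, was lowest in MIV, at 1471 ± 96.0 against 1711 ± 83.4 and 1836 ± 108 (-0.22 ± 0.07 and -0.32 ± 0.07). Both other tested EGLN1 probe sets passed in neither comparison, with -0.16 and 0.03 against MII and 0.003 and -0.05 against MIII. EGLN3 gave 53.7 ± 14.7, 29.6 ± 10.6 and 24.9 ± 15.3, near the floor in every line.

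VEGFA, the growth factor that drives the sprouting of blood vessels, was highest in MIV. Its signals were 1715, 1448 and 1628 in MII, 2017, 2026 and 2144 in MIII and 5697, 4981 and 5334 in MIV. The 3 lines did not overlap, with the wider step between MIII and MIV. VEGFA rose in MIV by 1.73 ± 0.07 against MII (limma adjusted p = 3.03e-10, 3.32-fold) and by 1.36 ± 0.07 against MIII (1.95e-09, 2.57-fold). In MIII against MII the change was 0.37 ± 0.07 (adjusted p = 0.000723). All 4 VEGFA probe sets were higher in MIV than in MII, by 1.15 to 1.73. In MIV against MIII all 4 were higher too, but 2 of them, at 0.92 and 0.90, fell short of 2-fold.

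BNIP3, a mitochondrial receptor for mitophagy, was stepwise higher from MII to MIV. It had 1288, 1376 and 1505.5 in MII, 2855, 2986 and 2952 in MIII and 4377, 4650 and 4668 in MIV, again without overlap. BNIP3 rose by 1.07 ± 0.06 in MIII against MII (limma adjusted p = 7.48e-09) and by 1.71 ± 0.06 in MIV against MII (9.78e-11, 3.26-fold), with 0.64 ± 0.06 between MIV and MIII. Averaged over both probe sets, the first of these was 0.984 and short of a call. Its relative BNIP3L was highest in MIII instead, at 1224 ± 79.7 against 836 ± 48.4 in MII and 1008 ± 85.8 in MIV (0.54 ± 0.08 in MIII against MII, adjusted p = 0.000122), which its second probe set did not show (0.07).

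CA12, a membrane carbonic anhydrase that helps to regulate pH at the cell surface, differed most of all. Its signals were 5842, 6347 and 5751 in MIII, 423, 582 and 652 in MII and 359, 307 and 293 in MIV. The MIII arrays lay far above the rest, and all MIV arrays lay below all MII arrays. CA12 rose by 3.42 ± 0.13 in MIII against MII (limma adjusted p = 7.21e-11, 10.7-fold) and was lower by -4.15 ± 0.13 in MIV against MIII (9.27e-12, 17.8-fold). Of its 7 probe sets the 5 that were tested were all higher in MIII than in MII, by 2.41 to 3.46. Averaged over all 7, of which 2 are dim, the changes were 2.36 and -2.87.

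ADM, the vasodilator peptide adrenomedullin, followed the order of CA12 at a smaller scale. It had 524, 660 and 611 in MII, 1223, 1145 and 1334 in MIII and 338, 449 and 325.5 in MIV, and no line overlapped with another. ADM was lower by -1.70 ± 0.12 in MIV against MIII (limma adjusted p = 7.07e-08, 3.24-fold) and higher by 1.02 ± 0.12 in MIII against MII (1.19e-05). The second of these was 0.936 without MII replicate 1, 0.969 without MIII replicate 3 and 0.968 with the pooled median as offset, each short of a call.

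The remaining hypoxia-induced genes moved less. DDIT4, an inhibitor of the growth kinase mTOR, was bright and somewhat higher in MIV (29054 ± 1733) than in MII (24124 ± 525) and MIII (24236 ± 670), by 0.27 ± 0.05 and 0.26 ± 0.05. ANKRD37, an ankyrin-repeat protein, was also highest in MIV (553 ± 16.3, against 373 ± 26.5 and 420 ± 64.0), with 0.55 ± 0.12 against MII and 0.39 ± 0.12 against MIII. KDM3A, a histone demethylase, gave 639 ± 44.0, 760 ± 60.4 and 677 ± 36.6, and passed only in MIII against MII (0.24 ± 0.09, limma adjusted p = 0.0442).

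**Figure D3:**
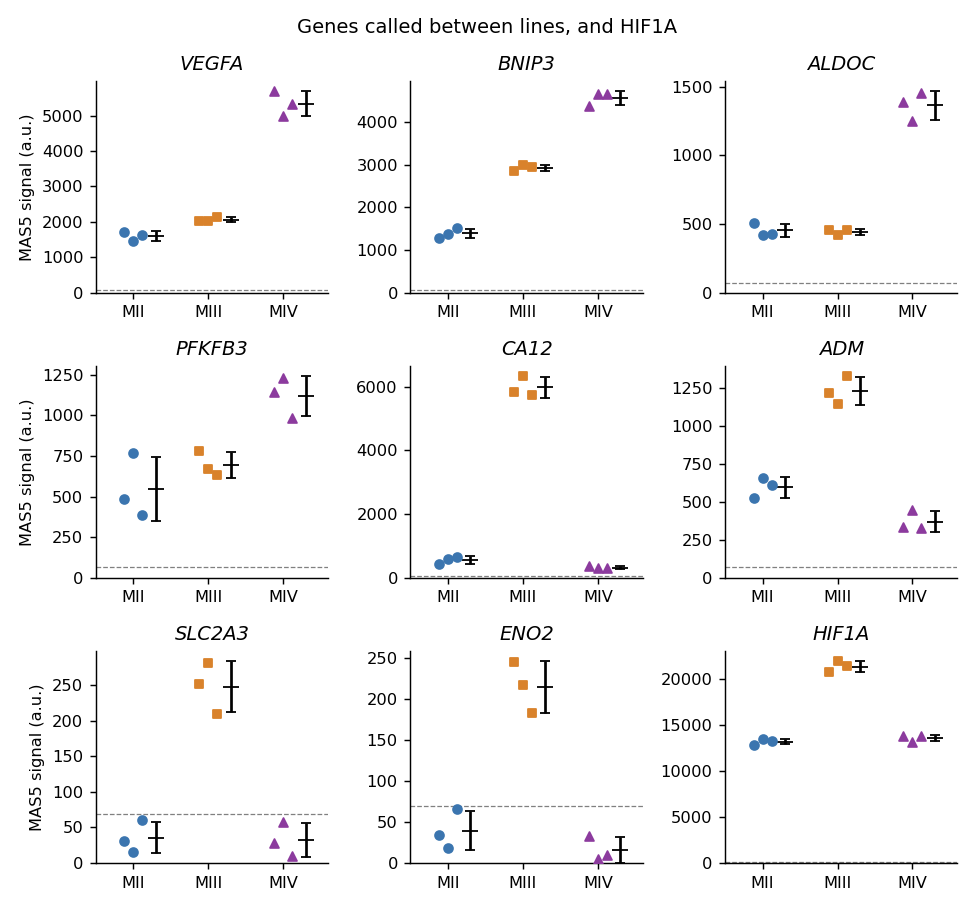
MAS5 signal on each array (symbols) with mean and SD over 3 arrays (black bars) for the 8 called genes and HIF1A, each panel with its own axis from 0, and the dashed line at 69.3. VEGFA, BNIP3, ALDOC and PFKFB3 are highest in MIV, and CA12, ADM, SLC2A3, ENO2 and HIF1A in MIII.

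The lines also differed in markers of cell identity, and some of these set MIII apart. The summed signal of 7 fibroblast markers was 4484 to 4758 in MIII, against 431 to 488 in MII and 377.5 to 434 in MIV. DCN, LUM, COL3A1 and THY1 made up this difference. COL1A1 was level, at 213 in MIII against 243 in MII and 222.5 in MIV, and COL1A2 and PDGFRA lay under the pooled median on average in every line. Among epithelial markers CDH1 averaged 1305 in MIII, against 12055 in MII and 7288 in MIV, and CLDN4 averaged 20.8 in MIII, against 1810.5 in MII and 1256 in MIV. EPCAM, KRT8 and KRT18 were also lowest in MIII, whereas KRT5 was level (25794, 26308 and 25069 in MII, MIII and MIV) and KRT14 was lowest in MIV (2155, 957 and 137). Leukocyte markers, mostly CD14, did not set MIII apart: they summed to 1541 to 1686 in MII, 639 to 749 in MIII and 392 to 454 in MIV. PTPRC was under the pooled median on average in all lines, whereas CD3E averaged 92.5, 60.0 and 80.6 in MII, MIII and MIV. Of the endothelial markers, VWF, CDH5 and KDR were under the pooled median on average in all lines. PECAM1 was above it, at 174, 251 and 306 in MII, MIII and MIV. It was higher than in MII in both MIII and MIV (limma adjusted p of 0.0497 and 0.0065). The part of these marker differences in the MIII values of CA12, ADM, SLC2A3 and ENO2 was not tested.

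The promoters of the called genes were searched for the core of the hypoxia response element, the DNA element that the hypoxia-inducible factors bind. The core was spelled as ACGTG or GCGTG, on both strands, in the 250 bases before each start site listed by RefSeq (GRCh38.p14). A palindromic CACGTG counts as 2 cores. No window was listed for VEGFA and SLC2A3, and PFKFB3 had more than 1. The 5 called genes with exactly 1 listed start site are shown, 5′ to 3′ on the gene's strand, with cores in capitals, because they include genes highest in MIV (BNIP3, ALDOC) and in MIII (ADM, ENO2, CA12).
BNIP3, chr10:131981924-131982173, minus strand: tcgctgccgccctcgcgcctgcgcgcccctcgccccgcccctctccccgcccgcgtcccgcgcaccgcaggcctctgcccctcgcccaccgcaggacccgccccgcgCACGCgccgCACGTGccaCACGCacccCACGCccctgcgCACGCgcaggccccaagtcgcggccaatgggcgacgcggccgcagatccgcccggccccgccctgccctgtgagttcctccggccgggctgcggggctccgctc
ALDOC, chr17:28576896-28577145, minus strand: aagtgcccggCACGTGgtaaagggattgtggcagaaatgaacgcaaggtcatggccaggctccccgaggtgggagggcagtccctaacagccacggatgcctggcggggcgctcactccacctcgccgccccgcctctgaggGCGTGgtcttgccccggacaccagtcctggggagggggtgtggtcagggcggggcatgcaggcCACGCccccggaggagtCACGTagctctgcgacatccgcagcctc
ADM, chr11:10304823-10305072, plus strand: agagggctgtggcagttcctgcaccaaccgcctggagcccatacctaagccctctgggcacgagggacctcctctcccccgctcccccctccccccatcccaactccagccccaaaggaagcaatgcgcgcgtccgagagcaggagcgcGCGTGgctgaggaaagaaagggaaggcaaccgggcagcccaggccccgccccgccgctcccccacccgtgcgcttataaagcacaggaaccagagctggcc
ENO2, chr12:6914330-6914579, plus strand: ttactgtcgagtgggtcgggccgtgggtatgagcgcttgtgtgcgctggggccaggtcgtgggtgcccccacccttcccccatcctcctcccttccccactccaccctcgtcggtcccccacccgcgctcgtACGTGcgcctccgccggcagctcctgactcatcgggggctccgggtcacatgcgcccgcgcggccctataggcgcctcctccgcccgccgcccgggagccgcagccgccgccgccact
CA12, chr15:63381847-63382096, minus strand: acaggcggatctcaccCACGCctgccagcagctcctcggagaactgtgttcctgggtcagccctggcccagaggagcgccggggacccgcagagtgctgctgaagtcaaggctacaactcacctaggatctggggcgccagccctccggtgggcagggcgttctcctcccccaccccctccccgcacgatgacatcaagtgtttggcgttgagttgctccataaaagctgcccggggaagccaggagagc

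BNIP3 had 6 cores and ALDOC 5 in these windows, and ADM, ENO2 and CA12 had 1 each. PFKFB3, also highest in MIV, had 1 and 2 cores in its windows, so the number of cores did not divide the genes by the line in which they were highest. Cores of BNIP3 were packed between 143 and 104 bases before the start site, and the one of CA12 lay at 234. The tested genes had 54 windows in 30 genes, several of them overlapping, of which 20 held ACGTG (37.0%, against 21.9% of the windows of all genes tested and 18.5% of all windows) and 20 held GCGTG (37.0%, against 42.5% and 32.2%). A match describes the letters only, and elements farther from the start site were not searched.

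The same pathways were followed through 102 further genes in 6 lists, of which 84 were tested. Between MIV and MIII 16 of them were called (19.0%), between MIV and MII 11 (13.1%) and between MIII and MII 14 (16.7%), against the 12.7%, 8.14% and 11.7% of all genes given above.

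Further genes that hypoxia is known to induce differed in both directions. Of 33 tested, 10 were called in MIII against MII (30.3%, against 11.7% of all genes), 7 higher and 3 lower (6.17% and 5.55% of all genes). In MIV against MIII 10 were called (30.3%, against 12.7%), 3 higher and 7 lower (4.95% and 7.79%). In MIV against MII 3 were called (9.09%, against 8.14%), 2 higher and 1 lower. LOX, the enzyme that crosslinks collagen, had 3032 ± 149.9 in MIII against 352 ± 65.8 in MII and 452 ± 46.4 in MIV, a log2 change of 3.06 ± 0.12 in MIII against MII (limma adjusted p = 1.16e-10). ANGPTL4, an inhibitor of lipoprotein lipase, rose by 1.95 ± 0.08 and the secreted hormone STC2 by 1.89 ± 0.09 in the same comparison, and both fell back in MIV against MIII (-2.25 ± 0.08 and -1.87 ± 0.09). BHLHE40, a transcriptional repressor, was instead highest in MIV, at 8812.5 ± 739 against 2481 ± 220.5 and 2216 ± 41.8 (1.82 ± 0.07 against MII and 1.98 ± 0.07 against MIII).

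In the list of HIF machinery 1 of 11 tested genes was called (9.09%), in MIV against MIII and against MII, where 12.7% and 8.14% of all genes were. CITED2, which competes with the hypoxia-inducible factors for their coactivators, was lower in MIV (358 ± 40.1) than in MII (977 ± 62.3) and MIII (889 ± 124), by -1.41 ± 0.11 and -1.26 ± 0.11 (limma adjusted p of 3.06e-07 and 5.03e-07). ARNT, the common partner, averaged 245, 196 and 162 and VHL 220, 251 and 214, and none of their changes passed, with adjusted p from 0.0795 to 0.820.

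Pyruvate handling differed by gene. Of 15 tested genes of that list, 4 were called between MIV and MIII (26.7%, against 12.7% of all genes), 1 higher and 3 lower (4.95% and 7.79%). Between MIV and MII 2 were called (13.3%, against 8.14% of all genes) and between MIII and MII 2 (13.3%, against 11.7%). SLC16A7, a carrier of pyruvate and lactate, was at 224 ± 27.0 in MIV, against 1622 ± 160 in MII and 2387 ± 425 in MIII (-2.76 ± 0.12 and -3.30 ± 0.12). PDK4, another inhibitory kinase of pyruvate dehydrogenase, peaked in MIII (3009 ± 96.8, against 658 ± 38.0 and 595 ± 67.7), where PDP1, the phosphatase that reactivates the enzyme, was lowest (917 ± 58.1, against 2133 ± 113 and 2492 ± 118). In MIII against MII their changes were 2.16 ± 0.09 and -1.20 ± 0.07 (limma adjusted p of 1.16e-10 and 6.32e-09). PDK2, a further such kinase, was lower in MIV against both, by -1.60 ± 0.56 against MIII and -1.78 ± 0.56 against MII (limma adjusted p of 0.0272 and 0.02). Its MIV arrays, at 65.1, 69.2 and 13.7, were all under the pooled median, and MIII replicate 3, at 41.6 against 327 and 297 in the other MIII arrays, lay within their range.

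Among other isoenzymes and glucose carriers, 10 of 18 were tested. SLC2A6, a carrier of lysosomal membranes, rose by 1.67 ± 0.20 in MIV and 1.33 ± 0.20 in MIII against MII, from 127 ± 13.7 to 441 ± 14.6 and 358 ± 118. The fructose carrier SLC2A5 fell by 1.81 ± 0.54 on the log2 scale in MIV against MII (limma adjusted p = 0.0148), and SLC2A12 fell by 1.24 ± 0.39 in MIII against MII (0.0182), both with a mean signal under 100 in every line.

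**Figure D4:**
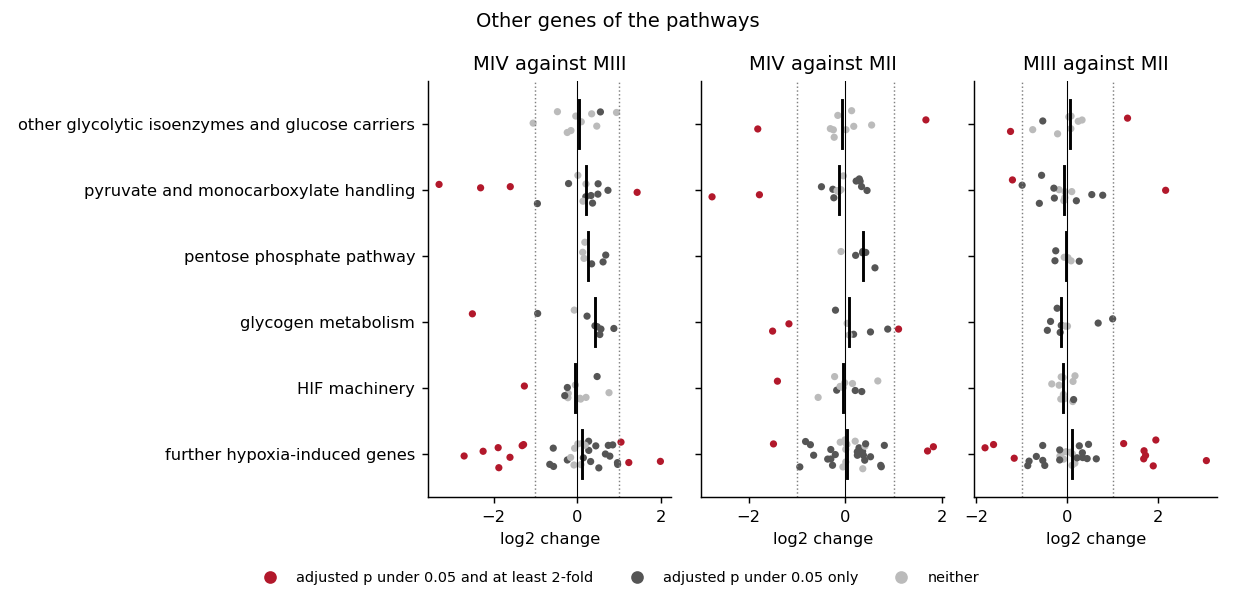
Log2 change of each tested gene of the 6 further lists (points, shifted up or down at random for legibility) in the 3 comparisons, with the list median as a black bar and dotted lines at a 2-fold change. Called genes are red, genes with an adjusted p under 0.05 alone dark grey, others light grey. The further hypoxia-induced genes spread to both sides in the comparisons with MIII, and the list medians stay within 0.42 of 0.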

How the data were processed

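Total RNA was labelled as biotinylated cRNA and hybridised to 1-colour Affymetrix arrays, 3 per line. Per the submitters' processing notes the deposited intensity values are MAS5 signals on a linear scale. Version, scaling target and detection calls are not given in the sources used here, and the values show an equal 2% trimmed mean of 500.07 on every array. The table held 54675 probe sets, of which 41091 have 1 gene in the platform annotation, 1801 several and 11721 none; 62 are controls and were left out.

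Signals were taken as log2(signal + 18.3), the offset being the pooled 25th percentile. Each of 19775 genes was represented by its highest-mean probe set and kept if 3 of 9 arrays exceeded the pooled median of 69.3, which left 12594. All 9 arrays entered one limma 3.58.1 fit with a mean per line (R 4.3.3, intensity trend, 6 residual degrees of freedom), with Benjamini-Hochberg adjustment across the 12594 genes. Precision is limited by the number of arrays: the standard error of a log2 change had a median of 0.11. An exact two-sided permutation test of 3 arrays against 3 cannot go below p = 0.1.

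Genes called in any comparison are given array by array, and of each further list up to 4 called genes with the largest change are named. Genes and lists were chosen with earlier results of these data known. Alternatives covered the offset, normalization, filter, variance prior, choice of probe set, samples in the fit, a replicate block and leaving out each array. Same-numbered arrays of different lines did not deviate together (r from -0.04 to 0.04), so the numbers were not taken to pair the arrays.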

Additional observations from a re-analysis of the deposited data

How the results depend on the processing

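Of 15 gene calls, 12 kept their direction and call in every setting that gave a value; PFKFB3 in MIV against MII (0.845 to 1.32), ADM (0.936 to 1.10) and BNIP3 (0.984 to 1.13) in MIII against MII dropped under 2-fold in some, and no call reversed. The 12 include the calls of SLC2A3 and ENO2. Their direction was fixed by the filter on low signals, so the lack of a reversal adds no support for them. Neither gene was tested with the filter at the pooled 75th percentile or without any one MIII array, since both then missed the filter. Some settings added calls. PFKFB4 was called higher in MIV against MIII with quantile normalization and without MIII replicate 2. ENO2 was called lower in MIV against MII without MIV replicate 1, and SLC2A1 lower in MIII against MII with suffix-free probe sets. With that filter 3 genes of the group were called in MIII against MII, and over all genes 893, 535 and 810 (MIV against MIII, MIV against MII, then MIII against MII, an order kept below) in place of 1604, 1025 and 1476. With the pooled median as offset 681 were called over all genes in MIV against MII. Suffix-free probe sets left 20 of the 33 genes, of which 2 were called in MIV against MII, and 15 in MIV against MIII and 9 in MIII against MII had an adjusted p under 0.05. Leaving out 1 array gave 4 to 6, 3 to 5 and 2 to 5 called genes of the group, 22 to 26, 18 to 20 and 11 to 16 with an adjusted p under 0.05, and 1427 to 1598, 931 to 1021 and 1298 to 1474 over all genes. The low end in MIII against MII was reached without MIII replicate 3, when SLC2A3 and ENO2 missed the filter and ADM fell under 2-fold. The replicate block left 6, 4 and 5 genes of the group called, and 1607, 1026 and 1483 over all genes. An alternative chosen after seeing the data took GAPDH from its array control probe set, the brightest one annotated to it; its changes were then -0.03 to -0.01, and the counts were the same. Signals under the pooled median in MII and MIV limit the precision of SLC2A3, ENO2 and EGLN3.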

Other observations

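Genes of the pentose phosphate pathway, which branches off glycolysis to make NADPH and ribose, were mostly higher in MIV than in MII. Of 6 tested, 5 had a limma adjusted p under 0.05 there and were higher in MIV, with a median of 0.36 over the 6, but none of the 6 reached 2-fold. PGD, an NADPH-producing dehydrogenase, averaged 10053 in MIV, against 6572 in MII and 6281 in MIII (0.61 against MII and 0.68 against MIII), and the transketolase TKT 37455, against 29165 and 24500 (0.36 and 0.61). Over all genes, 20.0% were higher in MIV than in MII at that adjusted p. In the other comparisons the list lay near all genes. Between MIV and MIII 3 of the 6 passed (50%, against 51.9% of all genes), 3 higher and 0 lower in MIV (25.3% and 26.6% of all genes). Between MIII and MII 3 passed (50%, against 47.2%), 1 higher and 2 lower in MIII.

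Genes of glycogen metabolism went both ways. GYS1, the glycogen synthase of most tissues, was lowest in MIV (1230 ± 89.5, SD, n = 3 arrays, against 2783 ± 90.2 in MII and 2386 ± 66.2 in MIII), with a log2 change of -1.17 ± 0.06 (SE) against MII. GBE1, the branching enzyme of the same pathway, was highest there (8472 ± 170, against 3943 ± 112 in MII and 6340 ± 359 in MIII), by 1.10 ± 0.05 against MII. PPP1R3C, which targets a phosphatase to glycogen, fell to 15.1 ± 11.4 in MIV from 73.4 ± 10.4 in MII and 165 ± 20.8 in MIII. Of the 9 tested genes of this list, 3 were called in MIV against MII (33.3%, against 8.14% of all genes), 1 higher and 2 lower (2.96% and 5.18%). In MIV against MIII 1 was called (11.1%, against 12.7% of all genes) and in MIII against MII 0 (against 11.7%), both under the share of all genes.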
